A study of Homo sapiens with 2 samples.

Results

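The genes described here are KRT7, KRT8, KRT18 and KRT19, the keratins of simple epithelia, 4 of the 33538 genes in the count matrices. They were taken by gene symbol, whatever their level, and each symbol matched 1 row in both libraries. The libraries come from human embryonic stem cells (hESCs) of the established line H1, grown in mTeSR1 medium with 50 ng/ml of bone morphogenetic protein 4 (BMP4) for 48 h. One library, labelled WT, is of unmodified H1 cells. The other, labelled GATA3 KO and called KO-labelled below, is of 1 clone (KO-GATA3-06) of an H1 line that carries a Cas9 cassette, in which the transcription factor gene GATA3 had been targeted. What the clone, the cassette and the lost GATA3 each contribute cannot be told apart. The protocol text of the WT-labelled library gives 1 h of BMP4, whereas 48 h is in its title and its duration field and is taken here as the exposure. No library without BMP4 was analysed here.

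Keratins build the intermediate filaments of epithelial cells. A filament is made of pairs in which a type II keratin (KRT7, KRT8) binds a type I keratin (KRT18, KRT19), and a keratin without a partner is degraded. KRT8 and KRT18 are the first pair made in the embryo and mark simple epithelia such as trophectoderm and amnion. KRT19 lacks most of the tail found in other keratins and pairs with KRT8 or KRT7. KRT7 is typical of ducts, bladder and trophoblast. In BMP4-treated hESCs, TFAP2A marks cells on the way to an amnion-like or surface-ectoderm-like fate, MIXL1 marks primitive-streak-like cells, and SOX2 is a pluripotency and neural factor.

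After removal of cells with over 7500 detected genes or over 25% mitochondrial counts, 2519 and 4450 cells remained in the WT-labelled and KO-labelled libraries, with medians of 44415 and 43131.5 unique molecular identifiers (UMIs, each 1 captured transcript) per cell. The pluripotency gene POU5F1, a defining gene of hESCs, was abundant in both, at 918 and 1480.1 UMIs per 1000000 (CPM). The 6 listed pluripotency genes did not move together. SOX2 (149.5 and 389 CPM) and LIN28A (393 and 550 CPM) were also higher in the KO-labelled library. NANOG (75.6 and 55.7 CPM), DPPA4 (270 and 247 CPM) and TDGF1 (440 and 327 CPM) were lower. GATA3 itself stood at 12.7 and 10.9 CPM, so its transcript tells nothing about which cells lack GATA3, and every direction rests on the labels. The defining fibroblast genes and the basal keratins KRT5 and KRT14 serve below as markers of other cell types. There was 1 library per condition, so no difference between libraries or cell classes could be tested against replicates. All intervals are 95% intervals of counting error alone.

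KRT18 was the most abundant of the 4 in both libraries, and KRT7 the rarest. KRT8 was about 2-fold higher and KRT19 about 1.5-fold higher in the KO-labelled library, while KRT18 stood at nearly the same level in both. The order of the 4 was the same in both libraries, but KRT8 made up a larger share of the keratin transcripts in the KO-labelled one. These counts come from the 3′ ends of transcripts, 1 count a molecule whatever its length, so transcript length does not set the order of genes in CPM, though reads shared with gene copies may.

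KRT18 (ENSG00000111057, chromosome 12, 52948871 to 52952906 on the plus strand in GRCh38) had 804 CPM (798 to 809) in the WT-labelled library and 809 CPM (804 to 813) in the KO-labelled library. The log2 ratio of GATA3 KO over WT, taken on CPM plus 1, was 0.01 (-0.00 to 0.02), and its sign turned with the cells kept and with the scaling. KRT8 (ENSG00000170421, chromosome 12, 52897187 to 52949954 on the minus strand) had 242 CPM (239 to 245) and 497 CPM (494 to 501), with a log2 ratio of 1.04 (1.02 to 1.06). KRT8 and KRT18 lie side by side on opposite strands, and their annotations overlap over 1084 bases. The 10x 3′ method keeps strand, but whether the authors' counting used it is not given in the sources used here. The intervals of KRT8 in the libraries lie far apart, and those of KRT18 overlap.

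KRT19 (ENSG00000171345, chromosome 17, 41523617 to 41528308 on the minus strand) had 201 CPM (198 to 204) in the WT-labelled library and 299 CPM (297 to 302) in the KO-labelled library. Its log2 ratio was 0.57 (0.55 to 0.60), which is 1.49-fold. KRT7 (ENSG00000135480, chromosome 12, 52232520 to 52252186 on the plus strand) had 4.22 CPM (3.82 to 4.64) and 8.59 CPM (8.16 to 9.03), with a log2 ratio of 0.88 (0.75 to 1.01). The annotation of KRT7 overlaps KRT86 on the same strand and KRT7-AS on the other, so part of its few counts may be shared. Pseudogene copies are many for this family, with 51 of KRT8, 68 of KRT18, 5 of KRT19 and 0 of KRT7 in the GENCODE annotation. None of these copies has a row in the matrix, so how reads shared with them were counted is uncertain, mostly for KRT8 and KRT18.

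**Figure D1:**
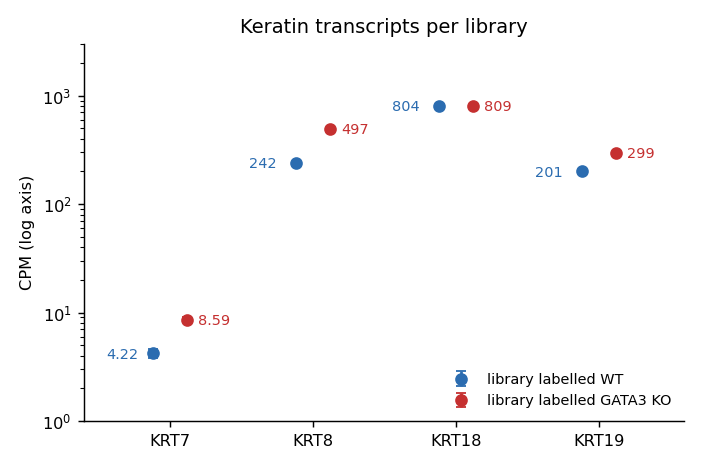
CPM on a log axis of the 4 keratins in the libraries labelled WT (blue) and GATA3 KO (red), 1 point per library with the exact Poisson 95% interval, which is mostly smaller than the point. KRT8 stood at 242 and 497 CPM and KRT7 at 4.22 and 8.59 CPM, while the KRT18 points, 804 and 809 CPM, lie level.

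Among the 5529 genes that reached 20 CPM in either library, 13.5% were at least 1.5-fold higher in the KO-labelled library and 7.85% at least 1.5-fold lower, with a median log2 ratio of 0.07. Of the 3 keratins with that level, KRT8 was past 1.5-fold higher, KRT19 lay just under that fold and KRT18 was past neither. KRT7 was below 20 CPM in both libraries and is not counted. The KRT8 ratio exceeded that of 98.1% of these genes, the KRT19 ratio that of 85.9%, and the KRT18 ratio that of 45.1%.

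The balance between pairing partners differed along with KRT8. Together the 4 keratins made up 1251 CPM (1244 to 1258) in the WT-labelled library and 1614 CPM (1608 to 1620) in the KO-labelled library. KRT8 supplied 19.3% (19.1 to 19.6) of their UMIs in the former and 30.8% (30.7 to 31.0) in the latter. KRT18 supplied 64.3% and 50.1%, KRT19 16.1% and 18.5%, and KRT7 0.337% and 0.532%. Among these 4 keratins, with no other keratin counted, type I transcripts outnumbered type II transcripts in both libraries. There were 0.245 and 0.457 type II UMIs per type I UMI. There were 0.301 KRT8 UMIs per KRT18 UMI in the WT-labelled library and 0.615 in the KO-labelled library.

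The same difference was seen inside single cells. The KRT8 share of the KRT8 and KRT18 UMIs was taken in cells with at least 20 UMIs of both together, at full depth. It had a median of 21.4% over 1791 of the 2519 WT-labelled cells, with the middle 50% of cells between 15.6% and 28.0%. Over 3391 of the 4450 KO-labelled cells the median was 36.0%, with the middle 50% between 29.0% and 42.8%. KRT8 outnumbered KRT18 in 0.279% of the former and 6.69% of the latter. KRT8 counts toward the limit of 20, so a cell can pass it through KRT8 itself. Counts of single cells are small, so part of this spread is counting error. TFAP2A was also read at full depth here, where deeper cells show it more readily. Within the KO-labelled library the share was larger in cells with a TFAP2A UMI (median 39.3%, 1203 cells) than without (34.1%, 2188 cells). Among WT-labelled cells the corresponding medians were 23.5% and 20.5%.

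To compare cells of unequal depth, each was thinned at random to 10000 UMIs, which kept 2173 WT-labelled cells and 4038 labelled KO and left out 346 and 412 shallower ones. KRT18 was found in nearly every cell, KRT8 and KRT19 in most, and KRT7 in few. KRT18 had at least 1 UMI in 98.8% (98.3 to 99.3) of WT-labelled cells and 98.3% (97.9 to 98.7) of KO-labelled cells, with a median of 6 UMIs in both. KRT8 was detected in 79.3% (77.6 to 81.0) and 93.0% (92.2 to 93.8), with medians of 2 and 3 UMIs. KRT19 was detected in 74.9% (73.0 to 76.7) and 87.1% (86.0 to 88.1), with medians of 1 and 2 UMIs. Unthinned, over all kept cells, these shares were 97.8% and 97.3% for KRT18, 92.9% and 96.9% for KRT8, and 91.1% and 94.2% for KRT19. No cell class known to lack these keratins was at hand in which to read the share that free RNA gives.

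KRT8 and KRT18 had long upper tails, and that of KRT8 differed between the libraries. At least 10 KRT8 UMIs were counted in 3.59% (2.85 to 4.46) of thinned WT-labelled cells and in 12.9% (11.9 to 14.0) of those labelled KO. At least 20 were counted in 0.598% and 4.14%. For KRT18 the shares with at least 10 UMIs were 24.2% (22.4 to 26.0) and 25.3% (24.0 to 26.7), whose intervals overlap. The far tail of KRT18 was longer in the WT-labelled library, with a 99th percentile of 49.3 UMIs against 36.6 and a highest cell of 112 against 88. KRT19 reached 10 UMIs in 2.16% and 4.38% of cells. The tenth of cells with the most KRT8 held 40.2% of its UMIs in the WT-labelled library and 40.5% in the other, a nearly equal share. For KRT18 the values were 35.5% and 32.8%, and for KRT19 38.6% and 35.4%.

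**Figure D2:**
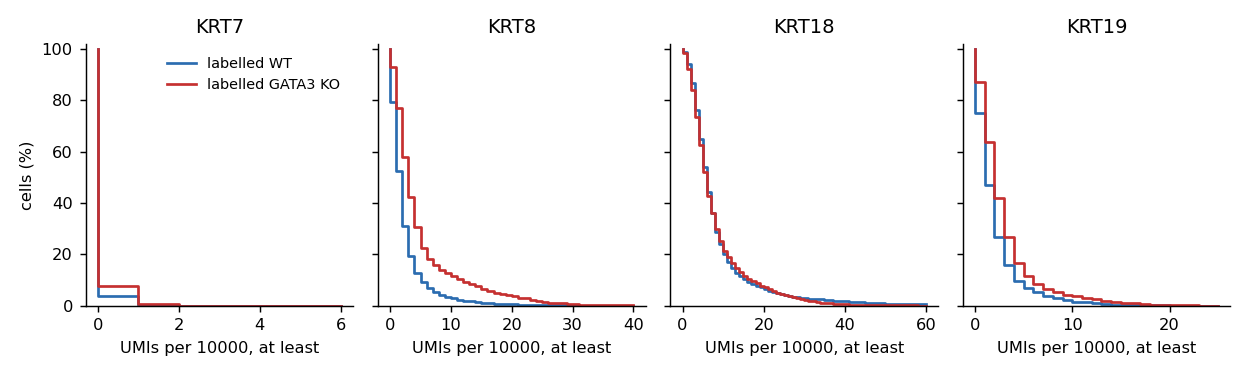
Percent of thinned cells (vertical axis) with at least the number of UMIs per 10000 on the horizontal axis, for each keratin, in 2173 WT-labelled cells (blue) and 4038 labelled KO (red). The KRT8 curve of the KO-labelled library lies above the other through its tail, with 12.9% against 3.59% of cells at 10 UMIs or more, while the KRT18 curves run together up to about 20 UMIs.

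KRT7 was sparse. It was detected in 81 thinned WT-labelled cells, 3.73% (2.97 to 4.61), and in 307 labelled KO, 7.60% (6.80 to 8.46). Of these cells, 4 and 26 had more than 1 KRT7 UMI, and the highest cells had 6 and 4. Unthinned, 12.4% and 23.9% of kept cells had a KRT7 UMI. In the WT-labelled library, cells with KRT7 also held more of the other keratins, at 454 CPM of KRT8 and 1532 CPM of KRT18 against 234 and 804 CPM in cells without it. KRT8 in the KO-labelled cells was at 493 and 482 CPM, and the KRT18 level was slightly lower with KRT7 than without, at 752 against 799 CPM.

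The next comparison was between cells with and without a UMI of TFAP2A, MIXL1 or SOX2, within each library. KRT8, KRT18 and KRT19 were higher in cells with TFAP2A and lower in cells with SOX2, in both libraries, by more than 2-fold in 11 of these 12 comparisons. Their relation to MIXL1 was weak. KRT7 followed a different pattern, and was nearly missing from the MIXL1 cells of the WT-labelled library.

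TFAP2A, an AP-2 transcription factor, had a UMI in 264 of the thinned WT-labelled cells and 705 of those labelled KO. KRT8 in WT-labelled cells stood at 543 CPM (515 to 572) in cells with TFAP2A and 201 CPM (194 to 207) in cells without, with a log2 ratio of 1.43 (1.34 to 1.52). Its KO-labelled levels were 1170.4 CPM (1145 to 1196) and 337 CPM (331 to 344), with a log2 ratio of 1.79 (1.75 to 1.83). KRT8 in cells without TFAP2A was thus still higher in the KO-labelled library. KRT18 had 1636 CPM (1588 to 1686) with and 720.3 CPM (708 to 732) without TFAP2A in the WT-labelled library, with a log2 ratio of 1.18 (1.13 to 1.23). Its levels were 1637 CPM (1608 to 1667) and 617 CPM (609 to 626) in the KO-labelled library, with a log2 ratio of 1.41 (1.37 to 1.44). The KRT18 level of cells with TFAP2A was the same in both libraries to within its counting interval. KRT19 had 427 and 172 CPM in the WT-labelled library, and 616 and 222 CPM in the other, with log2 ratios of 1.31 (1.21 to 1.41) and 1.47 (1.42 to 1.53).

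All 3 of these keratins passed 1.5-fold higher with TFAP2A in each library. Of all genes of at least 20 CPM on the higher side, 3.35% of 5257 did so in the WT-labelled library and 5.59% of 5496 in the KO-labelled library. In the former, 41 genes had a higher ratio than KRT8, 50 a higher one than KRT19 and 62 a higher one than KRT18. In the latter these numbers were 62, 92 and 97. KRT10, a keratin of stratified epithelia, had log2 ratios of only 0.20 (0.07 to 0.32) and 0.41 (0.31 to 0.51), and VIM, the vimentin of mesenchymal and stem cells, of -0.52 (-0.68 to -0.36) and -0.19 (-0.26 to -0.12).

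The levels were also graded with the number of TFAP2A UMIs. In the KO-labelled library, KRT8 stood at 337 CPM in cells with no TFAP2A UMI, 780.3 CPM in cells with 1, 1446 CPM in cells with 2 to 3 and 1810.4 CPM in the 106 cells with 4 or more. KRT18 had 617, 1243, 1939 and 2229 CPM in the same bins, and KRT19 222, 414, 753 and 960.4 CPM. In the WT-labelled library, KRT18 had 720.3, 1329 and 2532 CPM in the first 3 bins, and KRT8 201, 435 and 842 CPM. The last bin of that library held 5 cells, too few to read. Each of the 3 keratins was higher in every further bin of at least 20 cells.

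Cells with HAND1 or ISL1, factors of amnion and lateral mesoderm, overlap in part with the cells with TFAP2A, and KRT8, KRT18 and KRT19 were higher there than in the TFAP2A class as a whole. The 129 WT-labelled cells with a HAND1 or ISL1 UMI had 883 CPM of KRT8 and 2935 CPM of KRT18, against 202 and 699 CPM in the rest. The 213 such KO-labelled cells had 1829 and 2338 CPM, against 408 and 709.6 CPM. KRT19 had 708 CPM with and 171 CPM without these factors in the WT-labelled library, and 1013 and 250.2 CPM in the other. With the HAND1 or ISL1 cells left out, an alternative chosen after the data were seen, the TFAP2A log2 ratios of KRT8, KRT18 and KRT19 were smaller and stayed above 0. They were 0.95 and 1.51 for KRT8, 0.77 and 1.18 for KRT18, and 0.82 and 1.11 for KRT19, in the WT-labelled and KO-labelled libraries. Cells with a GATA3 UMI (213 and 299 cells) also had more KRT8, at 523 against 212 CPM in the WT-labelled library and 1509 against 401 CPM in the other.

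SOX2 had a UMI in 1177 of the thinned WT-labelled cells and 3493 of those labelled KO. KRT8 had 153 CPM (146 to 160.3) in cells with SOX2 and 348 CPM (336 to 360) in cells without it in the WT-labelled library, with a log2 ratio of -1.18 (-1.26 to -1.10). KO-labelled cells had 343 CPM (337 to 349) with SOX2 and 1379 CPM (1348 to 1411) without, with a log2 ratio of -2.00 (-2.05 to -1.96). KRT8 was therefore at a similar level in SOX2+ KO-labelled cells and in SOX2- WT-labelled cells. KRT18 had 559 and 1154 CPM in the WT-labelled library and 623 and 1900.2 CPM in the other, with log2 ratios of -1.04 (-1.089 to -1.001) and -1.61 (-1.64 to -1.57). KRT19 had 139 and 278 CPM, and 226 and 703 CPM, with log2 ratios of -0.99 (-1.08 to -0.90) and -1.63 (-1.69 to -1.58).

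All 3 passed 1.5-fold lower with SOX2 in each library, against 3.55% of 5269 genes in the WT-labelled library and 6.81% of 5549 genes in the KO-labelled library. Each was lower in cells with 1 SOX2 UMI than with none, and lower again with 4 or more. KRT18 had 1154, 687, 559 and 420.3 CPM in WT-labelled cells with 0, 1, 2 to 3 and 4 or more SOX2 UMIs, and 1900.2, 1033, 679 and 506 CPM in KO-labelled cells. VIM went the other way, with log2 ratios of 1.11 (1.01 to 1.21) and 0.28 (0.19 to 0.36).

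MIXL1, a homeobox gene of the primitive streak, had a UMI in 713 thinned WT-labelled cells and in 87 labelled KO. KRT8 had 215 CPM (205 to 226) with and 256 CPM (247 to 264) without MIXL1 in the WT-labelled library, and 468 and 483 CPM in the other. KRT19 had 167 and 221 CPM, and 267 and 291 CPM. KRT18 had 704 and 894 CPM in the WT-labelled library, with a log2 ratio of -0.34 (-0.39 to -0.30), and 872 and 794 CPM in the other, with a log2 ratio of 0.14 (0.03 to 0.24) that turned to -0.10 with another thinning seed and to -0.18 with at least 2 MIXL1 UMIs. None of the 3 passed 1.5-fold lower in either library, where 2.86% of 5252 and 3.37% of 5521 genes did. With HAND1 or ISL1 cells left out, the KRT18 ratio in the WT-labelled library was -0.01 and the KRT8 ratio turned from -0.25 to 0.13. The median cell had 6 KRT18 UMIs with MIXL1 and 6 without in that library, and the 90th percentile 12 and 18, so the classes differed in their tails.

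KRT7 in relation to the markers rests on few counts. With MIXL1 it had 4 UMIs in 713 WT-labelled cells, 0.561 CPM (0.153 to 1.44), against 5.82 CPM (4.65 to 7.20) without, with a log2 ratio of -2.13 (-2.60 to -1.43). A KRT7 UMI was found in 0.561% of the cells with MIXL1 and in 5.27% of the others, at median depths of 48955 and 46333.5 UMIs before thinning. In the KO-labelled library, KRT7 had 2 UMIs in the 87 cells with MIXL1, with a log2 ratio of -1.53 (-2.90 to -0.02). Cells with TBXT or EOMES, other genes of the streak, had 0.757 against 6.01 CPM of KRT7 in the WT-labelled library and 3.16 against 8.63 CPM in the other. With SOX2, KRT7 had 4.93 against 3.11 CPM in the WT-labelled library, on 58 and 31 UMIs. The log2 ratio there was 0.53 (0.008 to 1.04), whose interval only just leaves out 0. In the KO-labelled library KRT7 had 8.62 against 6.79 CPM with and without SOX2. The log2 ratio of 0.30 (-0.14 to 0.76) there turned to -0.14 with no thinning, so no direction is read from it. With TFAP2A its log2 ratio was 0.81 (0.13 to 1.46) in the WT-labelled library, but -0.02 when cells were thinned to 20000 UMIs and -0.20 with no thinning, so no direction is read from it. In the KO-labelled library it was -0.17 (-0.56 to 0.22).

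**Figure D3:**
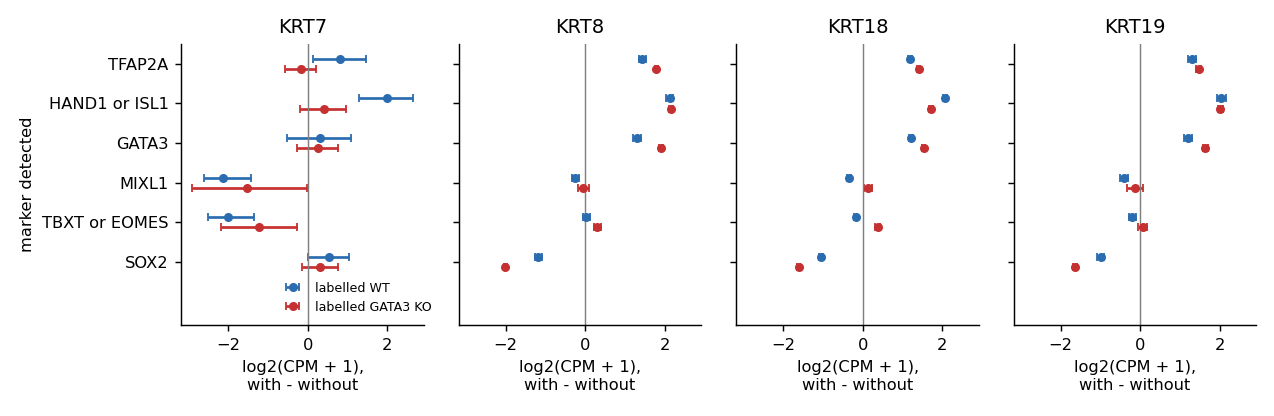
Difference in log2(CPM + 1) between thinned cells with and without a UMI of the marker on the vertical axis, for each keratin, in the libraries labelled WT (blue) and GATA3 KO (red), with intervals of counting error. KRT8, KRT18 and KRT19 lie right of 0 for TFAP2A and left of 0 for SOX2, by -2.00 to 1.79, and KRT7 lies left of 0 for MIXL1, at -2.13 and -1.53.

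**Figure D4:**
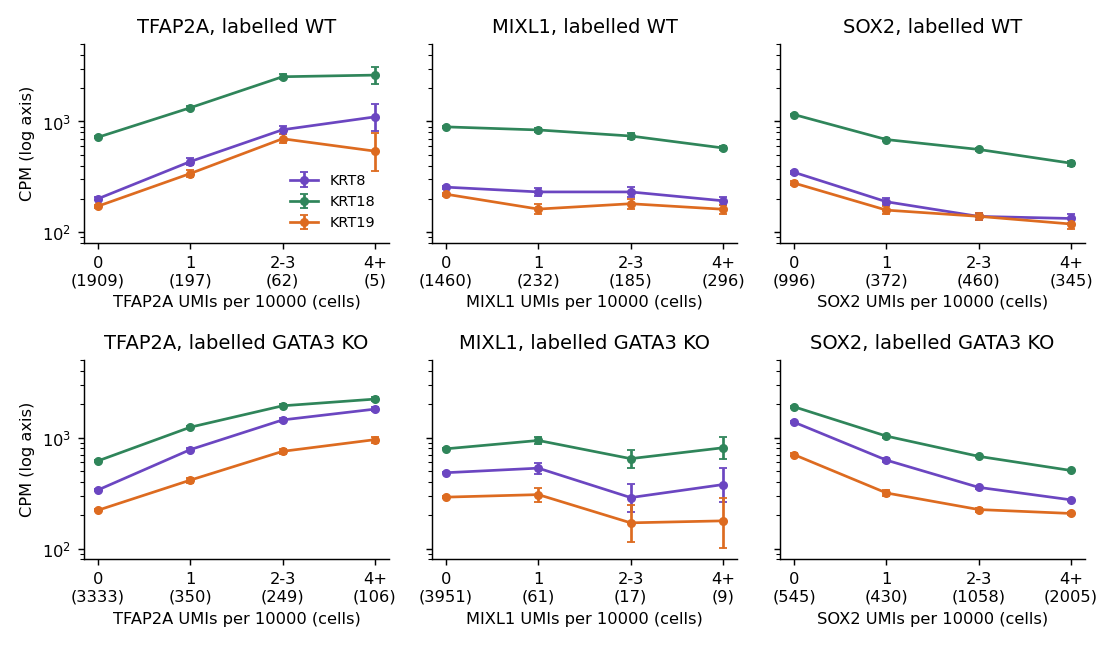
CPM on a log axis of KRT8, KRT18 and KRT19 in cells with 0, 1, 2 to 3 and 4 or more UMIs of TFAP2A, MIXL1 or SOX2 (columns) in the libraries labelled WT (upper row) and GATA3 KO (lower row), with Poisson 95% intervals and the number of cells in parentheses. In the lower row KRT8 climbs from 337 to 1810.4 CPM over the TFAP2A bins and descends from 1379 to 275 CPM over the SOX2 bins; bins of 5, 9 and 17 cells are too small to read.

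The libraries differed in how many cells carried each marker, so the keratins were also compared within the 8 combinations of TFAP2A, MIXL1 and SOX2 detection. In cells with SOX2 alone, 42.8% (929 cells) of the WT-labelled library and 76.0% (3067 cells) of the other, KRT8 had 142 CPM (135 to 150.1) and 298 CPM (292 to 304). KRT18 in these cells had 524 CPM (510 to 539) and 561 CPM (552 to 569), and KRT19 136 and 207 CPM. In cells with TFAP2A alone (132 and 317 cells), KRT8 had 786 CPM (739 to 835) and 1699 CPM (1654 to 1745). KRT18 there was slightly lower in the KO-labelled library, at 2395 CPM (2313 to 2480) against 2239 CPM (2187 to 2292), and KRT19 higher, at 627 and 885 CPM. In cells with none of the 3 markers (348 and 198 cells), KRT8 had 352 and 965 CPM and KRT18 1303 and 1469 CPM.

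KRT8 was higher in the KO-labelled library in 8 of 8 combinations, and so was KRT19, KRT18 in 7 of 8 and KRT7 in 4 of 8. These are counts of sign, and some log2 intervals include 0. In cells with MIXL1 alone, the interval was -0.22 to 0.28 for KRT18 and -0.03 to 0.87 for KRT19. In cells with all 3 markers KRT7 had no UMI in either library, which counts as not higher. Among KO-labelled cells, 3 of the combinations with MIXL1 held 8, 11 and 19 cells, so their values are loose. The difference in KRT8 was thus present between cells of like marker detection as well as between whole libraries. Detection is a loose measure of state. TFAP2A had a UMI in 264 and 705 thinned cells. At full depth it had one in 592 and 1203 of the cells with at least 20 KRT8 and KRT18 UMIs. Cells of like detection may therefore differ in the markers themselves, and the part of this in the KRT8 difference was not tested. With the KO-labelled library reweighted to the proportions of these combinations in the WT-labelled library, the log2 ratios were 1.17 for KRT8, 0.14 for KRT18, 0.62 for KRT19 and 0.35 for KRT7. Unweighted, the same thinned cells gave 0.99, -0.06, 0.51 and 0.88. The reweighted values lean on the 3 small combinations, and without MIXL1 in the combinations they were 1.45, 0.32 and 0.82 for KRT8, KRT18 and KRT19.

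The number of KRT8 UMIs per KRT18 UMI, taken per combination and without an interval, did not overlap between the libraries. It ran from 0.268 to 0.370 over the 8 combinations in the WT-labelled library and from 0.399 to 0.759 in the KO-labelled library. In cells with TFAP2A alone it was 0.328 and 0.759, and in cells with SOX2 alone 0.271 and 0.531. The closest values, 0.370 and 0.399, rest on 223 and 137 KRT8 UMIs, so counting error blurs that gap. Single cells did overlap. In those with at least 20 UMIs of both genes together, the KRT8 share ran from 8.70% to 37.9% (5th to 95th percentile) in the WT-labelled library. It ran from 20.0% to 51.9% in the KO-labelled library. Combinations of 1 library are not replicates, so these values describe these libraries only. KRT8 was about 2-fold higher in the KO-labelled library as a whole and KRT18 was level, so the ratio restates that difference. How many other gene pairs part in this way was not computed, so the lack of overlap is no result about this pair.

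**Figure D5:**
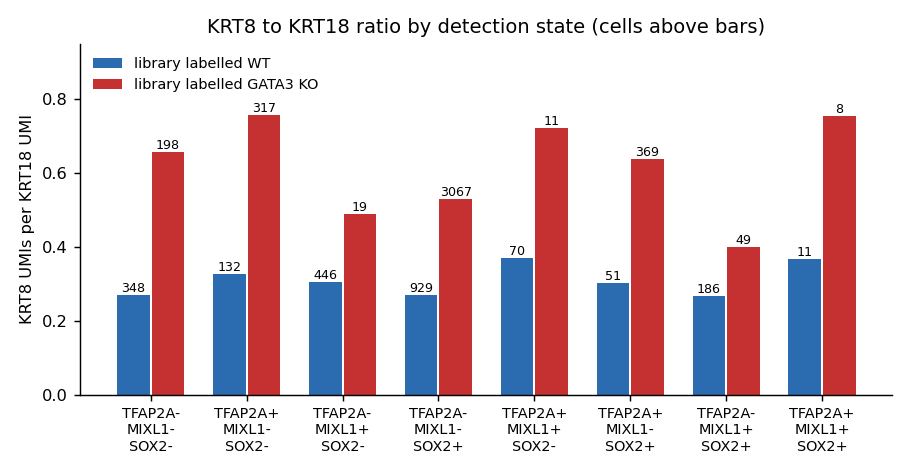
KRT8 UMIs per KRT18 UMI in thinned cells of each combination of TFAP2A, MIXL1 and SOX2 detection (a plus for at least 1 UMI), in the libraries labelled WT (blue) and GATA3 KO (red), with the number of cells above each bar. The blue bars reach 0.370 at most, and the red bars start at 0.399. How many other gene pairs part in this way was not computed.

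The same relation was read from the keratin side. Of the tenth of cells richest in KRT8, 46.5% (39.8 to 53.4) had a TFAP2A UMI in the WT-labelled library, against 8.33% (7.15 to 9.65) of the rest. Among KO-labelled cells these shares were 78.4% (74.1 to 82.3) and 10.7% (9.71 to 11.8). SOX2 was found in 14.3% of the KRT8-rich cells and 58.6% of the rest in the former, and in 26.3% and 93.2% in the latter. KRT18-rich cells had TFAP2A in 43.8% and 73.2%, and KRT19-rich cells in 40.6% and 70.0%. The rich cells were largely shared, since 59.9% of the KRT8-rich WT-labelled cells and 76.7% of those labelled KO were also among the KRT18-rich. The median depth before thinning of KRT18-rich cells was 40656 UMIs in the WT-labelled library and 47001 in the other, against 47759 and 44570 for the rest.

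Across cells, the level of KRT8 correlated with that of KRT18 (Pearson r of log counts 0.51 over 2173 WT-labelled cells and 0.60 over 4038 labelled KO) and of KRT19 (0.39 and 0.47). KRT18 correlated with KRT19 at 0.49 and 0.45. The points are cells of 1 library each and share its capture and free RNA, so these values are descriptive. Of 6717 genes detected in at least 10% of thinned cells of both libraries, HPGD, the prostaglandin-degrading dehydrogenase, was the most like KRT8 (0.53 and 0.64), KRT18 (0.60 and 0.58) and KRT19 (0.49 and 0.52), by the lower of the library values. CLDN10, a tight-junction claudin, was among the first 5 for all 3 by Pearson r and for none by Spearman's rho, at 0.44 and 0.65 with KRT8, 0.51 and 0.58 with KRT18, and 0.44 and 0.54 with KRT19. PCAT14, a long non-coding RNA, and NTS, the neurotensin precursor, were among the first 5 for KRT8 (0.46 and 0.55, 0.43 and 0.58) and for KRT18 (0.48 and 0.53, 0.53 and 0.59). The cardiac actin gene ACTC1 was the fifth for KRT19, at 0.37 and 0.46. By Spearman's rho NTS came first for KRT18 and KRT18 first for KRT19, and of the 8 genes named for each keratin, 6 were shared for KRT8, 6 for KRT18 and 4 for KRT19.

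The lowest correlations were negative for each keratin. TERF1, a telomere-binding protein, and TDGF1, the NODAL co-receptor, were among the lowest 3 for KRT8 (-0.39 and -0.57, -0.41 and -0.44), KRT18 (-0.44 and -0.54, -0.48 and -0.40) and KRT19 (-0.34 and -0.39, -0.36 and -0.32). SOX2 was the third for KRT18, at -0.39 and -0.54. PEBP1, a kinase inhibitor, was the third for KRT8 at -0.34 and -0.41, and the histone chaperone SET the third for KRT19 at -0.33 and -0.30. For KRT7, CLU, SFRP1, USP9X, IRX2 and CD24 were first, none of them above 0.16 in either library (CLU 0.11 and 0.08, SFRP1 0.16 and 0.07) and TUBB2B, TOMM7 and TUBB2A last (TUBB2B -0.10 and -0.07). In counts this sparse such values are no finding.

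Other genes of the keratin system were described from lists. Of 51 other keratins in the matrix, 31 had no UMI in either library and only KRT10 reached 20 CPM, at 206 CPM (203 to 209) in the WT-labelled library and 119.5 CPM (118 to 121) in the other, with a log2 ratio of -0.78. KRT10 thus went opposite to KRT8 while close to KRT19 in level in the WT-labelled library. KRT5 and KRT14, the keratins of basal epidermis, had 0 UMIs in both, which allows up to 0.0301 CPM and 0.0171 CPM. TP63, their regulator, was at 0.181 and 0.0913 CPM. Of the fibroblast markers, COL1A1 had 15.2 and 29.4 CPM and COL1A2 66.0 and 53.0 CPM, with a summed level of 83.2 and 87.4 CPM over the 5 listed genes, but DCN had 0 and 2 UMIs and LUM 1 and 0. Of the listed neural crest factors, FOXD3 had 6.46 and 15.1 CPM, SOX10 0.392 and 0.759 CPM and TFAP2B 0.211 and 1.30 CPM. All were thus low, and each was higher in the KO-labelled library. The part of other cell types in the keratin values was not tested.

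Of 13 other intermediate filament genes, 6 reached 20 CPM, of which 3 were past 1.5-fold higher in the KO-labelled library and 1 past it lower, against 13.5% and 7.85% of all genes of that level. VIM had 174 and 289 CPM, the stem and progenitor filament NES (nestin) 32.3 and 98.2 CPM, and the nuclear lamin LMNA 21.2 and 36.9 CPM. LMNB1, another lamin, was lower, at 148 and 89.0 CPM, while LMNB2 (52.3 and 54.9 CPM) and the neurofilament NEFM (66.5 and 73.4 CPM) were within the fold. Of 19 junction genes that anchor keratins, 8 reached 20 CPM, with a median log2 ratio of 0.14, and 1 of them, JUP (plakoglobin, 20.0 and 36.0 CPM), was past the fold, a share near the 13.5% of all genes and so no result about the list. Desmoplakin (DSP), which links keratins to desmosomes, had 60.5 and 77.9 CPM, and its partners DSG2 and DSC2 96.5 and 81.9 CPM and 50.0 and 40.4 CPM. PKP2 had 23.7 and 24.0 CPM, PKP4 32.7 and 32.6 CPM, DST 76.4 and 92.0 CPM and ITGA6 46.3 and 64.2 CPM.

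Of 13 epithelial transcription factors only TFAP2A reached 20 CPM, at 16.7 and 37.7 CPM, with a log2 ratio of 1.13. The other marker genes stood at 149.5 and 389 CPM for SOX2 and at 136 and 4.0 CPM for MIXL1. Detection of a marker therefore selects different numbers of cells in each library, and a cell without a UMI may still express the gene.

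The keratin levels also differed with cell quality. In kept cells with fewer than 2000 detected genes (244 and 285 cells), KRT18 had 2237 CPM in the WT-labelled library and 1196 CPM in the other, and KRT8 444 and 949 CPM. The cells removed for over 7500 genes (1012 and 1265) had 332 and 479 CPM of KRT8 and 825 and 815 CPM of KRT18. KRT8 in those removed cells was closer between the libraries than in the kept cells. Cells over the mitochondrial limit (271 and 506) had 520.2 and 381 CPM of KRT18. The part of these cells in the library differences was not tested beyond leaving them in or out.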

How the data were processed

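Single-cell RNA was measured in 2 libraries, grouped by their labels. The authors made 10x 3′ v3 libraries, aligned reads with Cell Ranger (3.0.2 in the file header) to GRCh38 and deposited raw UMI counts per gene and cell. Cells over 7500 detected genes or 25% mitochondrial counts, the limits of the study, were removed (3802 to 2519 and 6221 to 4450). Scrublet (scanpy 1.11.5) called 1 and 2 doublets, too few to have worked, so none were removed, and removing the 116 and 310 highest scores was an alternative. The libraries shared 8 cell barcodes.

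Counts were summed per library or cell class and divided by the total (CPM), with exact Poisson intervals. Ratios are log2 of CPM plus 1, with exact binomial intervals, and shares have Clopper-Pearson intervals. For a count of 0 the limit is 3 counts of the total. Cells were thinned to 10000 UMIs for classes, shares and correlations of log(1 + UMIs). The fold of 1.5 applied to genes of at least 20 CPM on the higher side. With 1 library per group there was no test, p-value or standard error. The intervals and thinning were checked on simulated data. Positions came from GENCODE 44. Alternatives changed the cells kept, the scaling (TMM of edgeR 4.0.16 included), the pseudocount, the thinning, the number of marker UMIs and the correlation (Spearman for Pearson).

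The named genes were the members, the markers, the 5 genes of highest and 3 of lowest correlation with each member, and list genes of at least 20 CPM. Members and lists were chosen with earlier results of these data known. No sequence was printed.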

Additional observations from a re-analysis of the deposited data

Results flagged for a closer look

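KRT18 stood out because its relation to streak genes had opposite directions in the libraries. Its log2 ratio in cells with over without MIXL1 was -0.34 in the WT-labelled library and 0.14 in the KO-labelled library. In cells with over without TBXT or EOMES it was -0.18 (-0.22 to -0.13) in the WT-labelled library and 0.37 (0.31 to 0.44) in the KO-labelled library. The intervals leave out 0 but cover counting error only, and with 1 library each the difference between the libraries was not tested. The MIXL1 class of the KO-labelled library held 87 cells, and its KRT18 ratio was -0.10 with another thinning seed and -0.18 with at least 2 MIXL1 UMIs. In the WT-labelled library the MIXL1 ratio was -0.01 once cells with HAND1 or ISL1 were left out.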

How the results depend on the processing

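The log2 ratios of GATA3 KO over WT moved most with the limit on detected genes and with equal weight per cell. Over all deposited cells they were 0.77 for KRT8, -0.0132 for KRT18 and 0.52 for KRT19, and with no upper limit on genes 0.77, -0.0062 and 0.53. With mitochondrial and ribosomal protein genes out of the total they were 1.00, -0.0280 and 0.54, and as means of per-cell CPM 0.98, -0.27 and 0.40. KRT18 was also at 0.0238 with at least 2000 detected genes and at -0.0059 with TMM scaling, so its direction is not fixed. KRT7 stayed between 0.75 and 1.01. With combinations of TFAP2A and SOX2 only, the reweighted ratios were 1.45 for KRT8, 0.32 for KRT18 and 0.82 for KRT19. The TFAP2A and SOX2 ratios of KRT8, KRT18 and KRT19 kept their sign in 120 of 120 recalculations (12 ratios under 10 alternatives each). Their size was less fixed. With another thinning seed the TFAP2A ratios of KRT8 (1.31) and KRT18 (1.12) in the WT-labelled library left their printed intervals. So did that of KRT19 (1.35) in the KO-labelled library. KRT19 in the former and KRT8 and KRT18 in the latter stayed inside. The intervals therefore do not cover the random draw of the thinning. The ratio of KRT7 with TFAP2A in the WT-labelled library turned to -0.0164 at 20000 UMIs, -0.20 with no thinning and -0.88 without HAND1 or ISL1 cells. With at least 2 MIXL1 UMIs, 2 keratins in place of 0 were past 1.5-fold lower in the KO-labelled library, over 26 cells. The share of all genes past that fold at this setting was not computed, so this count is no result about the keratins. The cause of these shifts was not tested. No paired analysis was possible because each group holds 1 library. Depth limits KRT7 most, whose levels in cells with MIXL1 rest on 4 and 2 UMIs.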
